A study of Mus musculus with 4 samples.

Results

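The genes of the cornified envelope were followed across the keratinocyte states of mouse digits in 4 single-cell RNA libraries. They were chosen by symbol alone: every gene named Lce or Sprr followed by a digit, plus Flg, Flg2, Hrnr, Rptn, Ivl, Lor, Cnfn, Tgm1, Tgm3 and Casp14. The rule found 47 of the 33696 genes in the count tables, of which 43 lie on chromosome 3, where the epidermal differentiation complex holds most of them side by side. Tgm3 lies on chromosome 2, Cnfn on 7, Casp14 on 10 and Tgm1 on 14. By role there were 21 late cornified envelope (LCE) genes, 16 small proline-rich (SPRR) genes, 4 S100-fused genes (Flg, Flg2, Hrnr, Rptn), 3 scaffold genes (Lor, Ivl, Cnfn) and 3 enzymes (Tgm1, Tgm3, Casp14). With at least 100 UMIs in the keratinocyte-like cells of each experiment, 33 genes could be described by name, and the 14 others are given by count, except Lce3d, Lce3e, Sprr2a1, Sprr2a2, Sprr2e, Sprr2k and Sprr4, which are named after their values were seen. In those cells 37, 37, 31 and 32 members had at least 100 UMIs in the SAR131675, control diet, LNR and sham libraries, in that order, while 0, 2, 4 and 3 had none.

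The cornified envelope is the protein shell that replaces the plasma membrane of a keratinocyte as it leaves the granular layer and becomes a dead, flattened corneocyte. Transglutaminases cross-link scaffold proteins such as loricrin and involucrin with SPRR and LCE proteins, while filaggrin bundles keratin filaments and is later cut up by proteases, among them caspase-14. Loricrin, filaggrin and LCE genes are textbook markers of the last living layer of the epidermis, whereas several SPRR genes are known from stressed, wounded or hair follicle epithelium.

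The 4 libraries came from hindlimb digits of female C57BL/6 mice (C57BL/6J in the methods) aged 6 to 8 weeks. In the first experiment mice were fed chow with SAR131675, an inhibitor of the lymphatic growth factor receptor VEGFR3, at 30 mg/kg (30 ppm) for 8 days, and a library from mice on the matched diet was the control. In the second, lymph node removal (LNR) was done on 1 limb, and the contralateral limb with a sham operation was the control. For each library digits 2 to 4 of 10 mice were pooled and digested to single cells, so each condition was 1 library from its own batch, treatment and batch cannot be told apart, and no test across samples could be made. Only digits 2 and 4 had been amputated according to the methods, so tissue of an unamputated digit was included, and the labels give no day after amputation. The paper's text and its figure legend give different days for the diet libraries, so no day is given here. LNR was done by surgery on the inguinal and popliteal nodes, and both controls are labelled as untreated.

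Of 21669 to 38464 barcodes per library, 19827 to 29076 passed limits applied here to all libraries, which the methods give for the LNR experiment alone (200 to 5500 genes, at most 30000 UMIs and at most 10% mitochondrial UMIs), with a median of 5725 to 11316 UMIs. The kept barcodes held 50.6%, 56.9%, 75.9% and 79.1% of all UMIs of the 47 genes in the SAR131675, control diet, LNR and sham libraries. Barcodes over the upper limits on genes or UMIs held 49.2%, 43.0%, 21.0% and 19.9%. The SAR131675 and control diet libraries shared 348 barcodes and the LNR and sham libraries 130. A cluster of keratinocytes of mixed marker expression, led by Prg4, Col1a1 and S100a8, held 390 sham cells and 3 LNR cells and was given no name. Keratinocyte states were made by clustering each experiment with the 47 genes left out of the variable genes, and were named from other marker genes. UMIs of the 47 genes stayed in the totals used for scaling, so the states were not wholly independent of them. The clustering gave 18618, 15316, 7550 and 9090 keratinocyte-like cells, among them 508, 700, 235 and 256 granular-like cells. The granular-like cells carried 16, 16, 16 and 15 of the 16 granular markers, with Degs2 at 0 in the sham library, and those markers summed to 38216, 38069, 26633 and 27812 UMIs per 1000000 UMIs of the state (CPM). The state was named from these same markers, so their presence is no separate check of the name. Immune markers summed to 19.9, 24.9, 252 and 52.7 CPM in the same cells, and fibroblast markers to 272, 162, 922 and 910. The part of these other cells in the results was not tested.

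The 47 genes were mostly a granular program. Together they made up 10.1%, 9.66%, 3.09% and 3.75% of all UMIs of granular-like cells in the SAR131675, control diet, LNR and sham libraries. In the other keratinocyte states the sum stayed far lower. Infundibulum-like cells, which resemble the upper opening of the hair follicle, had 3594, 3416, 1893 and 2555 CPM, spinous-like cells 1255, 1314, 688 and 672, and basal-like cells 600, 627, 400 and 408. Endothelial-like cells, which should lack these genes, had 128, 132, 76.0 and 100.3 CPM, and fibroblast-like cells 127, 236, 138 and 130.2. These sums are taken as a background level, and the part of free RNA in them was not tested. The endothelial-like median depth was 8645, 7638.5, 4332.5 and 3973.5 UMIs, and that of granular-like cells 22081, 21272.5, 16810 and 15942. Among members with at least 100 UMIs, 33 of 37, 33 of 37, 28 of 31 and 29 of 32 had their highest level in granular-like cells. The exceptions were the same genes throughout: Tgm3 was highest in basal-like cells and Sprr1a and Rptn in infundibulum-like cells in all 4 libraries, and Sprr4 was highest in infundibulum-like cells of the diet libraries, where it reached 100 UMIs. Many LCE genes reached 100 UMIs through granular-like cells, which held 99.4% of the 155 Lce3f UMIs in the LNR library. For such genes the filter nearly fixed the highest state. The counts of members highest in granular-like cells are thus a description, and no share of all genes is set beside them. In an alternative, levels left out the 1% of cells of each state richest in members. The filter of 100 UMIs there left out the richest 1% of all keratinocyte-like cells, and 21 LNR members passed it. Of these, 18 were highest in granular-like cells. The tables count UMIs at the 3′ ends of transcripts, which do not scale with gene length, so levels of different genes are set side by side in CPM. Intervals in parentheses are exact 95% intervals and cover counting error only.

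**Figure D1:**
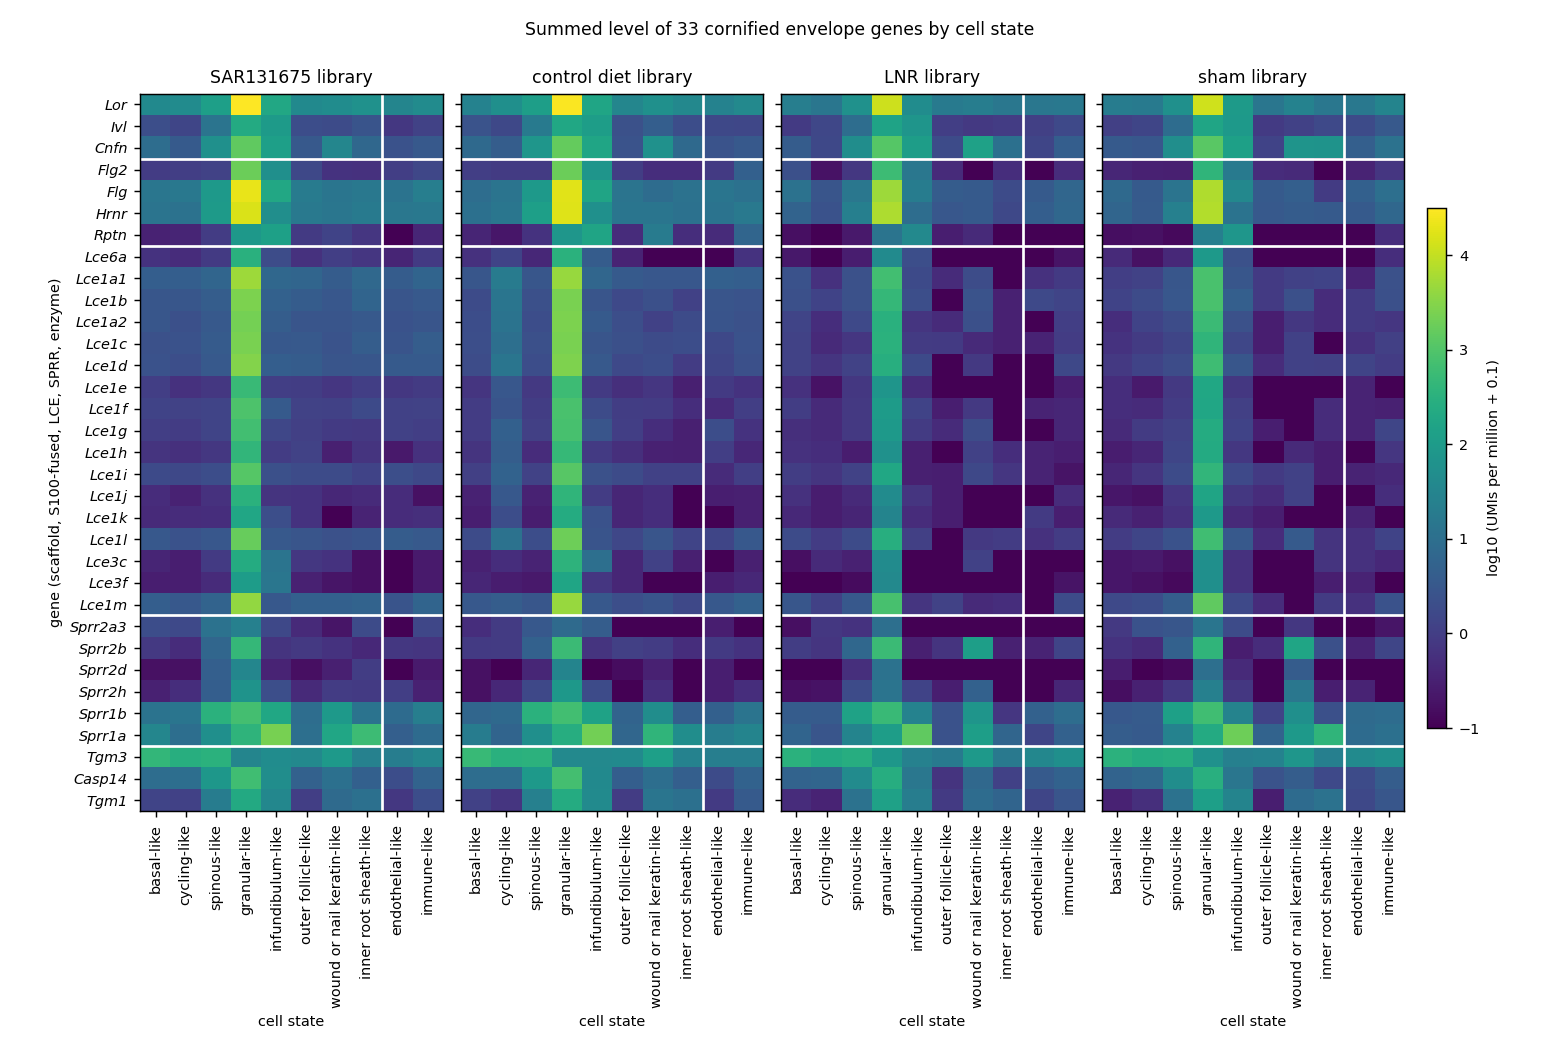
Heat map of 33 cornified envelope genes (rows, grouped by role) in each cell state (columns) of the 4 libraries (panels), with color giving log10 of CPM plus 0.1. The bright column is the granular-like state; Tgm3 is brightest in basal-like cells and Sprr1a in infundibulum-like cells.

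Among the scaffold genes, loricrin (Lor), the bulk protein of the envelope, had the highest level of all 47 genes in granular-like cells. It stood at 31696.5 (31584.1 to 31809.3) CPM with SAR131675, 29039 (28944.4 to 29133.9) with the control diet, 11849 (11740.9 to 11957.3) with LNR and 12410 (12299.7 to 12520.9) in the sham library. Granular-like cells held 94.0%, 96.1%, 95.1% and 87.1% of all Lor UMIs of keratinocyte-like cells. A Lor UMI was found in 99.8%, 99.6%, 98.7% and 98.8% of granular-like cells and in 23.7%, 19.2%, 6.46% and 6.68% of endothelial-like cells. After every cell was thinned to 2000 UMIs, these shares were 99.4%, 99.5%, 91.7% and 93.9% against 5.12%, 4.89%, 3.46% and 3.23%. Cornifelin (Cnfn), a small envelope protein, had 1411, 1587, 1147 and 1221 CPM in granular-like cells and 130, 172, 118 and 132 in infundibulum-like cells. Involucrin (Ivl), a scaffold laid down early under the plasma membrane, was less tied to the granular state. It had 229, 193, 159 and 172 CPM there and 101, 113, 75.1 and 92.8 in infundibulum-like cells, and only 40.6%, 43.1%, 49.9% and 41.5% of its UMIs came from granular-like cells.

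The S100-fused genes encode large repeat proteins that fill and coat the corneocyte, of which filaggrin is the best known. Flg had 21096 (21004.3 to 21188.1), 17678 (17604.5 to 17752.3), 4969 (4900 to 5040) and 7037 (6954 to 7120) CPM in granular-like cells of the SAR131675, control diet, LNR and sham libraries. Hornerin (Hrnr), a relative of filaggrin, had 15818, 16739, 6534 and 7326 CPM there and 100.5, 130, 23.7 and 24.97 in spinous-like cells. Between 90.2% and 97.2% of the UMIs of Flg and Hrnr came from granular-like cells. Filaggrin-2 (Flg2) was confined to fewer cells, with a UMI in 46.1%, 42.3%, 24.7% and 18.8% of granular-like cells and levels of 1873, 1816, 602 and 404 CPM. Repetin (Rptn), known from the follicle opening, had more CPM in infundibulum-like cells (132, 161, 37.9 and 76.4) than in granular-like cells (84.7, 77.5, 13.1 and 24.1). Its infundibulum UMIs came from 3.35% to 5.68% of the cells, and without the 1% of cells richest in members the levels were 54.6, 51.8, 23.7 and 27.3 CPM there and 84.8, 78.8, 13.3 and 24.4 in granular-like cells, so the order turned in the diet libraries.

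To set sequence beside these levels, the 120 bases before the start of a few members were read from the RefSeq promoter table, built on GRCm38.p6, whereas the counts were made on GRCm39. The table held 45 promoters for 44 of the 47 genes. Capitals mark TATA boxes (TATAAA), AP-1 motifs (TGANTCA) and KLF motifs (CACCC), searched on both strands and written as the transcribed strand reads, so that a KLF motif on the other strand appears as GGGTG. The 3 most abundant scaffold and S100-fused genes are shown first. Lor was read from chr3:92083143-92083262 on the minus strand, Flg from chr3:93273426-93273545 on the plus strand and Hrnr from chr3:93319629-93319748 on the plus strand.
Lor: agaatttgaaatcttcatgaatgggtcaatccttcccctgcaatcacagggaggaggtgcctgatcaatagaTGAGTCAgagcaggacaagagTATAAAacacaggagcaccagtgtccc
Flg: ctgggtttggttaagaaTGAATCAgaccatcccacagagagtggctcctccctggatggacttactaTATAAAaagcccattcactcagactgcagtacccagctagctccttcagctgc
Hrnr: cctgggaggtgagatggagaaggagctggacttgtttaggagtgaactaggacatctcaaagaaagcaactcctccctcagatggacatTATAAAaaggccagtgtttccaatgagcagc
All 3 held a TATA box in this window, and Lor and Flg an AP-1 motif.

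The LCE genes, small cysteine-rich proteins added to the envelope last, had most of their UMIs in the granular state. Their sum was 25876, 26896, 3882 and 7079 CPM in granular-like cells and 38.0, 20.8, 17.2 and 24.6 CPM in spinous-like cells. Endothelial-like cells had 27.4, 21.998, 4.35 and 6.47 and immune-like cells 35.4, 26.3, 9.78 and 14.0. In the diet libraries spinous-like levels were thus close to those of cells that should lack the genes, and in the LNR and sham libraries they were above them. Lce1a1 had 4877 (4833 to 4921), 4581 (4544 to 4619), 698 (672 to 725) and 824 (796 to 853) CPM in granular-like cells, and Lce1m had 3995, 4505, 798 and 1436. Across the 17 LCE genes described by name, levels ran from 109 for Lce3f to 4877 for Lce1a1 with SAR131675, and from 173 to 4581 for the same genes with the control diet. In the LNR library they ran from 29.5 for Lce1k to 798 for Lce1m, and in the sham library from 54.3 for Lce3f to 1436 for Lce1m. Lce3c, from a subfamily known to respond to barrier damage, had 241, 365, 45.7 and 55.8, and Lce6a, the outlying gene of the family, 310.2, 328, 42.6 and 88.8. An Lce1a1 UMI was found in 47.6%, 43.1%, 34.9% and 28.1% of granular-like cells, and in 3.57%, 3.07%, 0.27% and 0.13% of endothelial-like cells. With cells thinned to 2000 UMIs, which left out 28, 89, 5 and 10 granular-like cells, the shares were 30.8%, 30.1%, 19.1% and 16.3% against 1.00%, 0.72%, 0.31% and 0.15%. The promoters of Lce1a1 and Lce1m, which were among the highest Lce1 genes, are shown for contrast with those of Lor and Flg. Lce1a1 was read from chr3:92648308-92648427 on the minus strand and Lce1m from chr3:93019062-93019181 on the minus strand.
Lce1a1: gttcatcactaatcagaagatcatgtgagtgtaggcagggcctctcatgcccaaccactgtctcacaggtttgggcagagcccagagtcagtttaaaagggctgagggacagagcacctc
Lce1m: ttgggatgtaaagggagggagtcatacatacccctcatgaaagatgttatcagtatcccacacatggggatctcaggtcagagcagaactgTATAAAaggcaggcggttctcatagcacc
Lce1a1 held none of the searched motifs in this window and Lce1m a TATA box alone.

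SPRR genes, whose proline-rich proteins cross-bridge other envelope proteins, did not share a single pattern. Sprr1a had its highest level outside the granular state. In infundibulum-like cells it had 2307 (2285 to 2329), 2170 (2146 to 2194), 1461 (1428 to 1495) and 1952 (1916 to 1988) CPM, against 381, 262, 114 and 230.0 in granular-like cells. A Sprr1a UMI was present in 50.8%, 49.8%, 65.0% and 68.0% of infundibulum-like cells, and in 33.4%, 33.5%, 47.3% and 48.9% after thinning. The 10% of these cells richest in it held 88.1%, 87.6%, 70.4% and 74.1% of its UMIs. Without the 1% of cells richest in members the level was 1460.3, 1447, 1151 and 1387 CPM, still above that of granular-like cells. Sprr1b began lower in the epidermis: it had 706, 676, 528 and 643 CPM in granular-like cells and already 324, 332, 151 and 132 in spinous-like cells, and 17.9% to 35.9% of its UMIs were granular. Sprr2b had 464, 569, 561 and 389 in granular-like cells. In cells named for wound or nail keratins it had 0.53 and 0.85 in the diet libraries and 122 and 168 in the LNR and sham libraries. Sprr2h had 66.7, 86.3, 13.1 and 24.3 CPM in granular-like cells, Sprr2d 33.3, 30.4, 11.6 and 10.2, and Sprr2a3 24.5, 7.88, 10.0 and 13.3. The 10 other SPRR genes did not reach 100 UMIs in keratinocyte-like cells of both experiments. Counts of Sprr2a1, Sprr2a2 and Sprr2a3 are uncertain, since under 50% of the 90-base windows in the last 400 bases of their transcripts were unique in the transcriptome.

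Of the enzymes, Tgm1 and Casp14 had their highest level in the granular state and Tgm3 did not. Transglutaminase 1 (Tgm1), the membrane-bound enzyme that cross-links the envelope, had 219, 240, 139 and 128 CPM in granular-like cells and 20.03, 25.3, 11.6 and 11.6 in spinous-like cells. Caspase-14 (Casp14) had 663 (647 to 679), 702 (687 to 716), 271 (255 to 288) and 289 (272 to 306) in granular-like cells and 81.1, 90.9, 45.7 and 48.5 in spinous-like cells. Granular-like cells held 44.8%, 52.5%, 55.7% and 42.0% of Tgm1 UMIs and 43.5%, 51.7%, 45.1% and 38.3% of Casp14 UMIs, shares close to those of Ivl. The next highest state for Tgm1 was infundibulum-like, with the granular level 6.22-, 5.74-, 6.58- and 4.16-fold above it. Transglutaminase 3 (Tgm3) had 431 (425 to 437), 509 (502 to 516), 320.2 (311 to 329) and 345 (336 to 354) in basal-like cells, 319, 339, 261 and 264 in spinous-like cells, and 32.5, 38.8, 80.3 and 61.9 in granular-like cells. Between 0.54% and 2.19% of Tgm3 UMIs came from granular-like cells. Tgm3 was found in 85.9%, 89.2%, 74.4% and 74.6% of basal-like cells, and in 50.3%, 55.8%, 43.6% and 44.6% after thinning. The promoters of Sprr1b, Sprr1a and Tgm3 are shown because their levels lay outside the granular pattern in part or in full. Sprr1b was read from chr3:92438780-92438899 on the minus strand, Sprr1a from chr3:92485882-92486001 on the minus strand and Tgm3 from chr2:130012220-130012339 on the plus strand.
Sprr1b: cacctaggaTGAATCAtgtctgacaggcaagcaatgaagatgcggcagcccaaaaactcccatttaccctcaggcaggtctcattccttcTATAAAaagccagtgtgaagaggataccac
Sprr1a: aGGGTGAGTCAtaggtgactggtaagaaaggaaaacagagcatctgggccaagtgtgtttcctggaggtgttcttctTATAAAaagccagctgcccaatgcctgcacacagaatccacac
Tgm3: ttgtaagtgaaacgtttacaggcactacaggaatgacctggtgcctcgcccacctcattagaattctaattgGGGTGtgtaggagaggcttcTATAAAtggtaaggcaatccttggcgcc
Each held a TATA box, Sprr1b and Sprr1a an AP-1 motif, and Sprr1a and Tgm3 a KLF motif on the other strand. In Sprr1a the AP-1 and KLF letters overlap.

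Over the full 300-base promoters, the AP-1 motif TGANTCA was present in 31.1% of the 45 member promoters and in 7.81% of all 32851 promoters of the table. It was found in 9 of 14 SPRR promoters, 3 of 4 S100-fused, 2 of 3 scaffold, 0 of 20 LCE and 0 of 4 enzyme promoters. Most of those SPRR promoters were of Sprr2 genes, with a motif centred at -190 to -195 from the start and TATAAA at -26. The member shares thus do not count independent promoters. TATAAA within the 50 bases before the start was present in 37.8% of member promoters and 3.67% of all, with 10 of 14 SPRR and 2 of 20 LCE promoters holding it. The KLF motif CACCC was about as common in members (55.6%) as in all promoters (57.5%), and the CEBP motif TTNNGCAAT was present in 6.67% and 2.18%. These matches are letters in a window and were not tested as binding sites.

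LCE transcripts were not spread evenly over the granular-like cells. The 10% of cells richest in LCE UMIs held 87.3%, 89.2%, 86.7% and 96.6% of them in the SAR131675, control diet, LNR and sham libraries. The same measure was 30.3% to 44.4% for the S100-fused genes and 36.8% to 49.1% for the scaffold genes. At least 1 LCE UMI was found in 71.7%, 65.9%, 48.5% and 42.2% of granular-like cells, and in 20.4%, 13.3%, 1.51% and 2.44% of endothelial-like cells, which were shallower. With cells thinned to 2000 UMIs the shares were 44.4%, 45.01%, 34.3% and 28.9% against 5.41%, 4.35%, 0.472% and 0.615%. In the sham library 1 cell held 45.6% of all LCE UMIs of the granular-like cells.

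**Figure D2:**
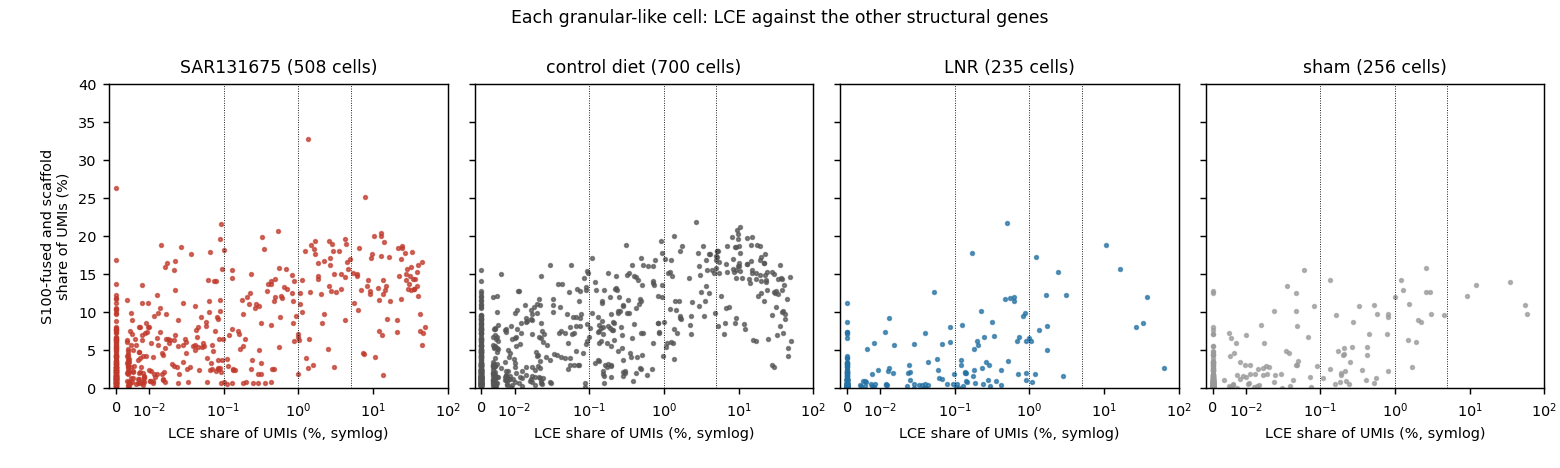
Each point is 1 granular-like cell, placed by the percent of its UMIs from LCE genes (horizontal, log axis that is linear near 0) and from S100-fused and scaffold genes (vertical), in 1 panel per library. Dotted lines mark LCE shares of 0.1%, 1% and 5%; most cells right of the last line have high S100-fused and scaffold shares too, and they number 66, 99, 6 and 5.

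To describe this spread, granular-like cells were placed in ranges by their LCE share of UMIs, a choice made after the data were seen: under 0.1%, 0.1% to 1%, 1% to 5%, and 5% or more. The highest range held 66, 99, 6 and 5 cells, and at most 22 cells of a library lay within 20% of any 1 limit. These are ranges and not cell types, and all levels that follow leave LCE UMIs out of the denominator. Lor went from 15830 CPM in the lowest range to 105897 in the highest with SAR131675, from 13644 to 104746 with the control diet, from 6166 to 129142 with LNR and from 7075 to 124802 in the sham library. Flg went from 14219 to 44488, from 10719 to 46459, from 3054 to 30557 and from 4381 to 38037, and Flg2 from 474 to 7517, from 479 to 7684, from 164 to 8366 and from 56.1 to 6185. All 3 genes were thus higher in the LCE-rich cells of every library. Hrnr was too, with 14050, 14070, 5216 and 6056 in the lowest range and 22750, 22852, 21250 and 13466.5 in the highest. Between the end ranges Cnfn had no common direction, from 1296 to 1324, from 1465 to 1488, from 1028 to 941 and from 1138 to 511. In every library it was higher in between, with 1783, 2174, 1726 and 1818 in the 1% to 5% range. In the highest LNR range medians over cells were below the sums for Flg, Flg2 and Hrnr, at 12078 for Flg, 2269 for Flg2 and 3006 for Hrnr. The LNR median of Hrnr was 2288 in the lowest range, 9640 at 0.1% to 1% and 6146 at 1% to 5%. Sprr1b ran opposite to Lor, from 953 to 51.3, from 875 to 40.6, from 633 to 53.8 and from 640 to 0, with 1002 in sham cells of the 0.1% to 1% range. Ivl went from 298 to 16.7 with SAR131675 and from 223 to 7.97 with the control diet, and the LCE-rich LNR and sham cells had no Ivl UMI. Those 6 and 5 cells were shallow, with median depths of 3757.5 and 8029 UMIs against 17095 and 16158 in the lowest range. Krt10, the keratin of the spinous layer, had a median over cells of 36099, 34914, 33369.5 and 33213 CPM in the lowest range and 789, 611, 87.1 and 246 in the highest, where the summed level was 1205, 836, 834 and 511. Median genes per cell were 3857, 3888.5, 3074 and 2881 in the lowest range and 1496.5, 1585, 524.5 and 798 in the highest.

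**Figure D3:**
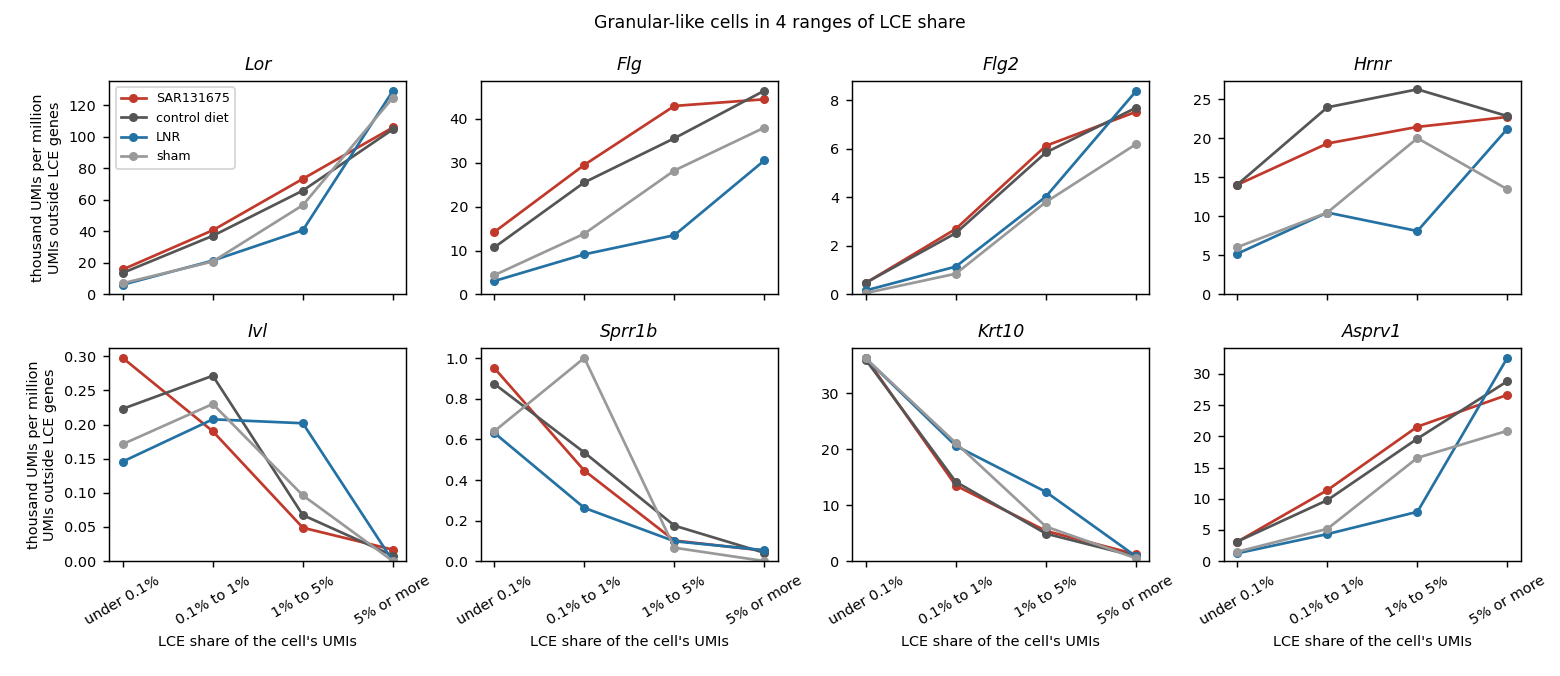
Level of 8 genes (vertical, linear axes, CPM outside the LCE genes) in granular-like cells placed in 4 ranges by their LCE share of UMIs, with 1 line per library. Lor, Flg and Flg2 are higher in the LCE-rich range than in the lowest, and Sprr1b and Krt10 lower, in all 4 libraries.

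The SAR131675 comparison asked whether blocking VEGFR3 changed the envelope genes. In granular-like cells the summed level was nearly the same, with 100683 CPM with SAR131675 and 96645 with the control diet, a log2 ratio of 0.059 (0.055 to 0.063). By role the log2 ratios were 0.11 for scaffold, 0.10 for S100-fused, 0.04 for SPRR, -0.06 for LCE and -0.10 for enzyme genes. Called means at least 1.5-fold apart, for genes with at least 100 UMIs over both libraries. Of 35 members that could be called, 1 was higher, where 2.49% of all 7886 genes were called higher, and 4 were lower, where 2.28% were. The members' median log2 ratio was -0.08, and that of all genes 0.007.

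The genes called lower with SAR131675 in granular-like cells were Lce3c, Lce3d, Lce3e and Lce3f, the Lce3 genes with enough UMIs, among which Lce3d and Lce3e had too few UMIs in the LNR and sham libraries. Lce3c had 241 against 365 CPM, a log2 ratio of -0.60 (-0.67 to -0.53). Lce3f had 109 against 173, a ratio of -0.66 (-0.77 to -0.56), Lce3d 14.3 against 28.7, a ratio of -1.01 (-1.30 to -0.72), and Lce3e 43.2 against 65.7, a ratio of -0.61 (-0.78 to -0.43). These genes are near copies of each other, with 63.3% to 89.1% of their 3′ windows unique, so counts may be split between them. The 15 other LCE genes lay between -0.44 for Lce1k and 0.14 for Lce1f. Sprr2a3 was called higher, at 24.5 against 7.88 CPM, a log2 ratio of 1.63 (1.29 to 1.99), from 235 and 98 UMIs in 34 and 29 cells. Sprr1a had a ratio of 0.54 (0.48 to 0.61), Flg and Ivl 0.25 each, Lor 0.13 and Hrnr -0.08, all short of the fold.

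The direction of the granular sum rested on how the cells were grouped. With each library clustered alone, 465 and 439 cells were granular-like and the log2 ratio of the sum was -0.67, and with cells chosen by at least 4 granular markers it was -0.41. The 4 members called lower became 24, where 8.71% of all genes were called lower, and 18, where 2.35% were. With libraries clustered alone 32.5% of all genes were called higher and their median log2 ratio was 0.35. The count was 1 without Scrublet calls, at a resolution of 0.4 and for the mean over cells, where 3.13%, 2.82% and 5.43% of all genes were lower, and 6 without upper limits, where 3.01% were.

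Outside the granular state the diet libraries differed in low-level members. In spinous-like cells 12 of 28 members were called higher with SAR131675, where 2.19% of all genes were, and 0 lower, where 1.89% were, while the member sum had a log2 ratio of -0.07. Among the 12 were 8 Lce1 genes, each at most 6.22 CPM, and the LCE sum of 38.0 against 20.8 had counterparts in other states. The LCE sum was 36.4 against 19.9 in outer follicle-like, 29.3 against 20.7 in basal-like, 28.5 against 18.8 in fibroblast-like and 27.4 against 21.998 in endothelial-like cells, while cycling-like cells had 25.1 against 112. The others were Sprr2a3 at 11.9 against 3.20, Sprr2d at 4.44 against 0.296, Sprr2h at 4.25 against 1.48 and Rptn at 0.858 against 0.551. A single cell held 32.2% of the Sprr2d UMIs. In infundibulum-like cells 3 of 22 members were called higher, where 1.45% of all genes were, and 0 lower, where 2.08% were. They were Sprr4 (16.8 against 10.5 CPM), Lce1b (5.08 against 2.78) and Lce3f (14.2 against 0.625), and 1 cell held 52.0% of the Lce3f UMIs.

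Granular-like cells made up 2.73% of keratinocyte-like cells with SAR131675 and 4.57% with the control diet, a log2 ratio of -0.74 (-0.91 to -0.58), which was -0.11 with each library clustered alone and -0.13 with cells chosen by markers. Over all keratinocyte-like cells the member sum was 4924 against 7274 CPM, a log2 ratio of -0.56. Of 38 members 3 were called higher, where 4.14% of all genes were, and 23 lower, where 2.8% were. The lower genes were 17 of 19 LCE genes, Sprr2b, Sprr2k, Flg2, Hrnr, Cnfn and Tgm1, and the higher genes were Sprr2a3, Sprr2e and Sprr4. These counts changed without the upper limits, which removed 49.2% and 43.0% of all member UMIs. That run also left an unnamed cluster led by granular markers outside the keratinocyte-like cells. The cluster held 49.8% and 51.6% of the member UMIs, partly in barcodes within the upper limits, and its part in the change was not tested. Without the limits 8 of 43 members were higher, where 5.1% of all genes were, and 3 lower, where 2.72% were. Of the 23 lower genes only Cnfn, Hrnr and Sprr2b stayed lower, and Lce3c and Lce3d were called higher. With the unnamed cluster joined, 7 members were higher, where 5.18% of all genes were, and 5 lower, where 2.77% were. Hrnr, for example, had 669 against 1148 CPM over all keratinocyte-like cells but 15818 against 16739 within granular-like cells.

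The LNR comparison asked the same of lymph node removal. In granular-like cells the member sum was 30886 CPM with LNR and 37466 in the sham library, a log2 ratio of -0.28 (-0.29 to -0.27). The LCE genes had the lowest ratio, -0.87 (-0.90 to -0.84), followed by S100-fused genes with -0.29, SPRR with -0.08, scaffold with -0.07 and enzymes with 0.03. Of 31 members 0 were called higher, where 1.55% of all 5282 genes were, and 16 were lower, where 1.63% were. The median of the 31 was -0.77, and that of all genes -0.02.

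Of the 16 lower genes 13 were LCE genes, with log2 ratios from -0.77 for Lce1f to -1.92 for Lce1h. Lce1h had 61.6 against 234 CPM, Lce1j 45.4 against 163, Lce1l 281 against 654 and Lce1m 798 against 1436. The other lower genes were Sprr1a (114 against 230.0), Sprr2h (13.1 against 24.3) and Rptn (13.1 against 24.1). Lce1a1, at 698 against 824, had a ratio of -0.24 and was not called. Flg had a ratio of -0.50 (-0.53 to -0.48), Flg2 0.57 (0.48 to 0.67), Sprr2b 0.53 (0.43 to 0.62) and Lor -0.07 (-0.09 to -0.05).

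The LCE values came from few cells, since 1 sham cell held 12609 of the 27653 LCE UMIs. Without the 1 cell of each library with the most member UMIs the LCE log2 ratio was -0.21. Of the members 6 were then called lower, where 1.38% of all genes were. Removal of the sham cell alone was not run. Without the 1% of granular-like cells richest in members the LCE ratio was 0.54, with 10 members called higher, where 1.75% of all genes were, and 3 lower, where 1.35% were. With each library clustered alone, 235 and 355 cells were granular-like, the ratio of the member sum was 0.46, and 18 members were called higher, where 3.9% of all genes were, and 1 lower, where 8.17% were.

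**Figure D4:**
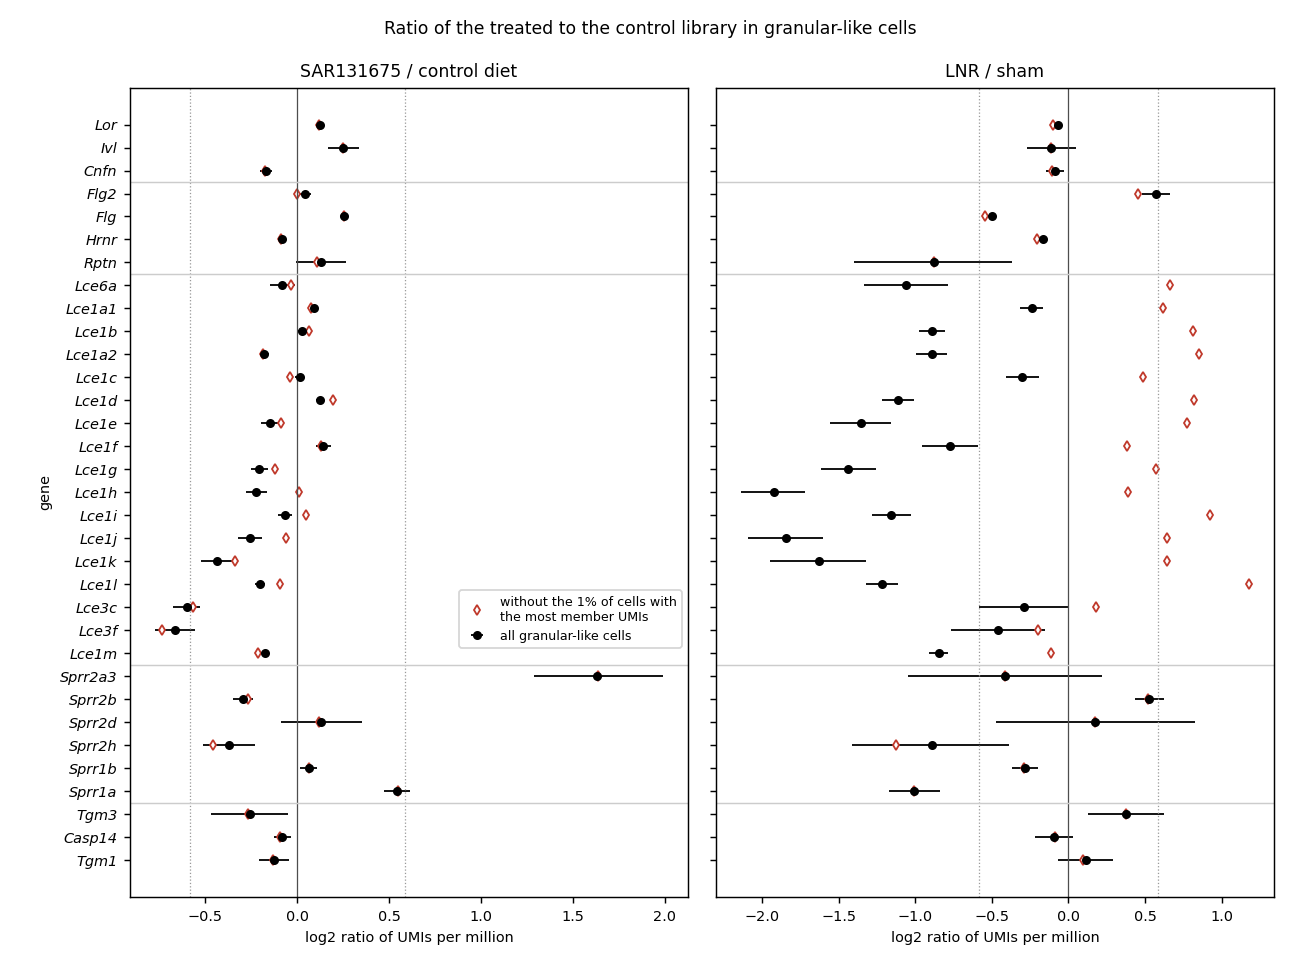
Log2 ratio of each member in granular-like cells, SAR131675 over control diet (left) and LNR over sham (right), as points with exact 95% intervals for counting error, with diamonds giving the ratio without the 1% of cells richest in members. Dotted lines mark 1.5-fold; most diet points lie between them, and the LCE points of the LNR panel lie left of 0 while their diamonds, except those of Lce3f and Lce1m, lie right of it.

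In spinous-like cells 0 of 14 members were called higher with LNR and 0 lower, where 0.416% and 0.554% of all genes were, and the member sum had a log2 ratio of 0.03. In infundibulum-like cells 0 of 12 members were called higher, where 0.773% of all genes were, and 3 were lower, where 1.31% were. They were Lor (48.3 against 98.96 CPM), Flg (19.9 against 37.5) and Rptn (37.9 against 76.4), and the sum had a ratio of -0.43. Without the 1% of cells richest in members Lor had 45.98 against 73.7, Flg 19.7 against 37.7 and Rptn 23.7 against 27.3, so Rptn was no longer past the fold. Granular-like cells were 3.11% of keratinocyte-like cells with LNR and 2.82% in the sham library, a log2 ratio of 0.14 (-0.12 to 0.41), which turned to -0.48 with each library clustered alone and to -0.25 with cells chosen by markers. Over all keratinocyte-like cells the member sum had a ratio of -0.18, and of 33 members 0 were called higher, where 0.654% of all genes were, and 16 lower, where 3.32% were. Without the 1 cell of each library with the most member UMIs 4 were lower, where 3.23% of all genes were. Without upper limits 5 were lower, where 3.39% were, and for the mean over cells 2 were higher and 2 lower, where 0.929% and 2.57% were. Without the unnamed clusters 1 was higher and 15 lower, where 0.721% and 0.91% were.

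Genes that act beside the envelope were counted in granular-like cells in the same way. The shares of all genes were, as above, 2.49% higher and 2.28% lower with SAR131675, and 1.55% and 1.63% with LNR. Of 32 partners of cornification with enough UMIs, such as desmosomal proteins and proteases, 0 were called higher and 2 lower with SAR131675. These were the alarmin genes S100a8, with a log2 ratio of -0.78, and S100a9, with -1.85. With LNR 0 of 28 were higher and 1 lower, Kprp, a keratinocyte proline-rich protein, at 104 against 183 CPM. None of 14 and 13 barrier lipid enzymes was called in either comparison. Of 24 and 23 regulators, Cebpb, a transcription factor of keratinocyte differentiation, was higher with SAR131675 (1095 against 728), and Ahr, the aryl hydrocarbon receptor, was lower with LNR at a log2 ratio of -0.65. These genes are named because few were called and their values were seen, and no listed gene was called in the same direction in both comparisons. The list medians lay between -0.11 and 0.01, where all genes had 0.007 and -0.02.

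Across keratinocyte clusters, the genes whose level was most like the member sum were Cysrt1, Csnk2a2, Thop1, Il36rn, Orm1, Srpk1, Elovl1, Fam43a, Il1rn and Hars. Pearson's r of log2 levels was 0.93 over the 20 clusters of the diet libraries and 0.92 over the 19 clusters of the LNR and sham libraries for Cysrt1. For the other 9 genes the lower of both values lay between 0.88 and 0.92. Clusters share libraries and depth, so the values are a description. Cysrt1 had 1163, 1117, 931 and 1030.3 CPM in granular-like cells and 32.1, 33.8, 45.7 and 42.4 in spinous-like cells, and Il36rn, the antagonist of the IL-36 receptor, had 1109, 882, 624 and 726 against 26.7, 24.2, 20.3 and 18.3.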

How the data were processed

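Single-cell RNA was captured with the 10x Genomics 3′ v3 chemistry from pooled digits, 1 library per condition. The authors deposited UMI counts per gene and barcode as filtered matrices. The submitters' processing notes name Cell Ranger 6.1.2 and GRCm39, while the file headers name 6.1.2 for the LNR and sham libraries and 8.0.1 for the SAR131675 and control diet libraries, so levels are compared within an experiment. SCTransform and Harmony, which the study used, were not repeated.

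Barcodes with 200 to 5500 genes, at most 30000 UMIs and at most 10% mitochondrial UMIs were kept in all libraries, limits that the study's methods state for the LNR experiment. Each experiment was clustered apart with scanpy 1.11.5 in Python 3.11.15: counts scaled to 10000 per cell, log1p, 2000 variable genes without the 47 members, 30 principal components, 20 neighbours and Leiden at a resolution of 0.7, then the same over keratinocyte-like cells. Clusters were named from listed markers, and the rule for naming, with a minimum score of 0.8 for granular-like clusters, was set after the clusters were seen. Scrublet called 4.67%, 0.907%, 7.41% and 6.97% of cells doublets in the SAR131675, control diet, LNR and sham libraries. The expected rates, set from the number of cells, were 23.3%, 19.2%, 15.9% and 16.5%. Fewer were thus called than expected, and unequally between libraries, so the alternative without Scrublet calls is no full check on doublets. None was removed except in that alternative.

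Summed UMIs per state were given in CPM with exact Poisson intervals, shares with Clopper-Pearson intervals and log2 ratios with exact conditional intervals, all at 95% and for counting error only, since cells are not replicates and no test across samples was possible. A gene was called at 1.5-fold with at least 100 UMIs over both libraries of a comparison. The members, gene lists and comparisons were chosen with earlier results of these data known. Members are named where they had at least 100 UMIs in both experiments, with Lce3d, Lce3e, Sprr2a1, Sprr2a2, Sprr2e, Sprr2k and Sprr4 added after their values were seen, and other genes where they changed alike in both experiments (none did) or were among the 10 most like the member sum, with S100a8, S100a9, Kprp, Cebpb and Ahr added after their values were seen. The script was tested on simulated counts. Protein sequences were not used here.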

Additional observations from a re-analysis of the deposited data

How the results depend on the processing

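No paired analysis was possible because each condition was 1 library. Depth and single cells set the limits: no interval covers variation between animals, the highest LCE levels came from few cells, and protein features were not analysed here. Each alternative changed 1 choice, except that the joined cluster also goes with no upper limits, and the cause of a change was not tested. The richest 1% and the richest cell were taken within a state for values of that state. For values over all keratinocyte-like cells they were taken among all of those cells. Those without shared barcodes, unnamed clusters or the single richest cell of each library, those that joined an unnamed cluster to the granular-like cells, those for the LCE sum without the richest 1% or without upper limits, and all for counts over all keratinocyte-like cells were chosen after the data were seen.

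For SAR131675 against the control diet, the log2 ratio of the member sum in granular-like cells (0.059 as reported) was 0.130 without upper limits (on genes or on UMIs), 0.065 with at most 5% mitochondrial UMIs, 0.126 without Scrublet calls, 0.147 and 0.085 at resolutions of 0.4 and 1.2, 0.066 with another denominator that leaves members out, 0.044 for the mean over cells, 0.064 without the richest 1% of cells, 0.082 without shared barcodes and 0.191 with an unnamed cluster joined. It turned to -0.667 with each library clustered alone and to -0.415 with cells chosen by 4 or more granular markers. Over all keratinocyte-like cells (-0.56 as reported) it was -0.355 without upper limits, -0.552 with at most 5% mitochondrial UMIs, -0.550 without Scrublet calls, -0.487 with libraries clustered alone, -0.568 for the mean over cells, -0.831 without the richest 1%, -0.512 with thinned cells, -0.547 without shared barcodes, -0.556 without unnamed clusters and -0.403 with the cluster joined. The LCE ratio (-0.06) was -0.323 without upper limits, -0.040 without the richest 1% and 0.227 with the cluster joined. The ratio of granular-like shares (-0.74) was -0.109 with libraries clustered alone and -0.128 by markers.

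The count of members called higher with SAR131675 (1 as reported) was 2 with at most 5% mitochondrial UMIs, without Scrublet calls and by markers, 3 with libraries clustered alone or the cluster joined, and 0 with thinned cells. In these settings 2.65%, 1.38%, 5.47%, 32.5%, 1.53% and 1.74% of all genes were called higher, in that order. The count called lower (4) was 1 without Scrublet calls, at a resolution of 0.4, for the mean over cells, with the cluster joined and at a fold of 2. The shares of all genes were 3.13%, 2.82%, 5.43% and 2.43%, and that at a fold of 2 was not computed. The count was 2 without shared barcodes, 24 with libraries clustered alone and 18 by markers, where 2.32%, 8.71% and 2.35% of all genes were lower. Over all keratinocyte-like cells the counts (3 higher and 23 lower) were 8 and 3 without upper limits and 7 and 5 with the cluster joined. The shares of all genes were 5.1% and 2.72%, and 5.18% and 2.77%.

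For LNR against sham, the ratio of the granular-like sum (-0.28 as reported) turned to 0.132 without upper limits and to 0.460 with libraries clustered alone. It was -0.316 with at most 5% mitochondrial UMIs, -0.179 without Scrublet calls, -0.379 at a resolution of 0.4, -0.003 by markers, -0.031 for the mean over cells, -0.150 without the richest 1%, -0.085 with thinned cells and -0.197 without the richest cell. Over all keratinocyte-like cells (-0.18) it was -0.156 without upper limits, -0.190 with at most 5% mitochondrial UMIs, -0.165 without Scrublet calls, -0.287 with libraries clustered alone, -0.040 for the mean over cells, -0.208 without the richest 1%, -0.077 with thinned cells, -0.316 over all kept cells and -0.168 without unnamed clusters. The LCE ratio (-0.87) was 0.209 without upper limits, 0.537 without the richest 1% and -0.214 without the richest cell. The ratio of granular-like shares (0.14) turned to -0.483 with libraries clustered alone and to -0.247 by markers.

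The count called higher with LNR (0 as reported) was 3 without upper limits and for the mean over cells, 1 without Scrublet calls, 18 with libraries clustered alone, 2 by markers, 10 without the richest 1% and 4 with thinned cells. In these settings 1.36%, 2.1%, 0.998%, 3.9%, 0.687%, 1.75% and 1.39% of all genes were called higher, in that order. The count called lower (16) was 6 without upper limits and without the richest cell, 1 with libraries clustered alone, 3 for the mean over cells and without the richest 1%, 5 with thinned cells and 10 at a fold of 2. The shares of all genes were 1.38%, 1.38%, 8.17%, 2.52%, 1.35% and 2.22%, and that at a fold of 2 was not computed. Over all keratinocyte-like cells the counts with LNR (0 higher and 16 lower) were 0 and 5 without upper limits, 1 and 16 with at most 5% mitochondrial UMIs and without Scrublet calls, 2 and 2 for the mean over cells, 2 and 4 with thinned cells, 0 and 4 without the richest cell, and 1 and 15 without unnamed clusters. In that order 0.453%, 0.538%, 0.464%, 0.929%, 0.46%, 0.654% and 0.721% of all genes were higher. The shares lower were 3.39%, 3.01%, 3.39%, 2.57%, 1.34%, 3.23% and 0.91%. The count of LNR members highest in granular-like cells (28) was 18 without the richest 1% of each state. There 21 rather than 31 members reached 100 UMIs, counted without the richest 1% of all keratinocyte-like cells.

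Single genes called lower with LNR also turned. Without upper limits the log2 ratio was 0.268 for Lce1b, 0.486 for Lce1a2, 0.004 for Lce1e, 0.143 for Lce1f, 0.210 for Lce1i, 0.133 for Lce1l and 0.142 for Lce1m. With libraries clustered alone it was 1.408 for Sprr1a, 1.363 for Lce6a and Lce1d, 1.334 for Lce1b, 1.331 for Lce1a2, 1.341 for Lce1e, 1.030 for Lce1f, 0.986 for Lce1g and Lce1j, 0.936 for Lce1h, 1.728 for Lce1i, 1.351 for Lce1k, 1.599 for Lce1l, 0.509 for Lce1m and 1.034 for Rptn. For the mean over cells it was 0.519 for Lce6a, 0.126 for Lce1b, 0.330 for Lce1a2, 0.174 for Lce1f, 0.138 for Lce1i, 0.146 for Lce1l and 0.309 for Lce1m. Without the richest 1% it was 0.665 for Lce6a, 0.810 for Lce1b, 0.849 for Lce1a2, 0.817 for Lce1d, 0.772 for Lce1e, 0.380 for Lce1f, 0.570 for Lce1g, 0.387 for Lce1h, 0.922 for Lce1i, 0.640 for Lce1j, 0.644 for Lce1k and 1.176 for Lce1l. With thinned cells it was 0.512 for Sprr2h, 0.312 for Lce1a2, 0.028 for Lce1f and 0.238 for Lce1m, and without the richest cell 0.111 for Lce6a.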

Other observations

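Many UMIs of the cornified envelope genes lay in barcodes that the upper limits removed. Among barcodes over these limits, 100, 102, 3 and 3 had more than 5% of their UMIs from the 47 genes in the SAR131675, control diet, LNR and sham libraries, and they held 30.1%, 26.7%, 9.78% and 4.40% of all member UMIs. When the diet libraries were clustered without upper limits, 1 cluster stayed unnamed under the naming rule, made of 222 SAR131675 and 295 control diet barcodes. Its leading genes were 2310050C09Rik, Crct1, Btc, Kprp and Asprv1, of which Crct1 and Kprp lie in the epidermal differentiation complex and Asprv1 encodes a protease that acts on profilaggrin. The 47 genes made up 256034 CPM in its SAR131675 cells and 248113 CPM in its control diet cells, and LCE genes alone 114250 and 111885 CPM. It held 49.8% and 51.6% of the member UMIs of these libraries, or 1196081 and 1275788 UMIs. All barcodes over the upper limits held 1183728 and 1064804, so the cluster also included barcodes within those limits. Its median depth was 22449.5 and 18875 UMIs, below the upper limit on UMIs. How many of its barcodes were within both upper limits was not counted.

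Inner root sheath-like cells gave another case of few cells with many UMIs. Their member sum was 787, 178, 64.2 and 528 CPM in the SAR131675, control diet, LNR and sham libraries, and in the SAR131675 and sham libraries 1% of these cells held 78.2% and 78.1% of it.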
